A study of Mus musculus with 6 samples.

Results

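Smooth muscle and pericyte genes were followed in mouse hearts with floxed PHD2 and PHD3 alleles, with and without Cre. The 10 genes were chosen by symbol: Acta2, Tagln, Cnn1, Myh11 and Smtn for the contractile proteins of smooth muscle, and Cspg4, Rgs5, Pdgfrb, Vtn and Mcam for pericytes. They were taken through every gene probe of the array whose RefSeq accession mapped to one of these symbols. This gave 12 probes for the 10 genes, out of 55681 distinct probes and 20128 genes named by accession. RNA from whole hearts of C57/B6 mice aged 8 weeks was hybridised in 1 colour (Cy3), 1 array per heart. The 3 control hearts were PHD2/3f/f; Cre-/- and the 3 hearts called KO-labelled here were PHD2/3f/f; Cre+/-, so all 6 animals carried the floxed alleles. The Cre driver, the deleted exons and any inducer are not given in the sources used here, and which cells of the heart lost the alleles is therefore not known. The replicates are separate hearts per the labels.

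Smooth muscle cells and pericytes are the mural cells that wrap the vessels of the heart, smooth muscle around arteries and pericytes along capillaries. The contractile genes of smooth muscle are driven by serum response factor and its partner myocardin, which bind a motif called the CArG box, and several of them are also switched on in activated fibroblasts. Pericytes are recruited and held by platelet-derived growth factor from endothelium acting on its receptor PDGFR-beta. PHD2 and PHD3, the products of Egln1 and Egln3, are oxygen-dependent prolyl hydroxylases that mark hypoxia-inducible factors (HIF) for destruction, and the series title sets them in the regulation of phospholamban under adrenergic stress.

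All values are log2 signals relative to the 75th percentile of their own array, so differences can be read between hearts for a gene but not between genes. Egln1 was 1.27, 1.39 and 0.99 in control hearts against -0.39, 0.29 and 0.06 with Cre, lower in all 3. Egln3 was 2.57, 2.44 and 2.69 without Cre and 4.24, 4.62 and 4.77 with it, which goes against the label at face value, and whether its probe lies in the deleted part is unknown. All 6 arrays lay on 1 slide, with control and KO-labelled hearts in separate blocks of positions, so array position and genotype cannot be told apart. Between 46.3% and 51.0% of probes lay well above background, and no probe was saturated (0 on every array). All 12 probes of the 10 genes lay well above background on all 6 arrays, so no member was lost to the filter on dim probes, and so did the 12 cardiomyocyte markers used to check the tissue. A change was called at a Benjamini-Hochberg adjusted p of at most 0.05 in limma, over 20014 genes and features without a name. Of these 39.1% were called, 16.1% as higher with Cre and 23.0% as lower. An exact permutation over 3 and 3 hearts has 0.1 as its smallest p, so no call could come from permutation. Each call rests on limma's model, which combines a gene's own variance with that pooled across genes.

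Upstream sequences were available for 7 of the 10 genes, from RefSeq on build GRCm38.p6, as windows from 250 bases before to 50 after a transcription start. Tagln, Myh11 and Pdgfrb had none. The sequences of 3 are shown as far as the start: Cnn1 (chr9:22099003-22099252, plus strand), which rose most, Vtn (chr11:78498870-78499119, plus strand), which fell most, and Acta2 (chr19:34255374-34255623, minus strand), which did not pass. Each is written 5′ to 3′ on the strand of its gene, and capitals mark the matches to a CArG box with 1 of its 6 core bases free and to the hypoxia motifs ACGTG and GCGTG on either strand.
Cnn1: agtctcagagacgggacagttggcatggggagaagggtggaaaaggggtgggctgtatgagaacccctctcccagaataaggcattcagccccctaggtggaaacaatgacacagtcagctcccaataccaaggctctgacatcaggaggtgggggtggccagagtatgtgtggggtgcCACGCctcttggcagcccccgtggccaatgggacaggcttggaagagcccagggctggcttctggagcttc
Vtn: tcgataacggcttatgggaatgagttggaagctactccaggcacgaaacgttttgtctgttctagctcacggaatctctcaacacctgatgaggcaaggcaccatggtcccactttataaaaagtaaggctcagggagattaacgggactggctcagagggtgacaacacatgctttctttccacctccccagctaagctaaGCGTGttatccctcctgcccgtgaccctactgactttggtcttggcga
Acta2: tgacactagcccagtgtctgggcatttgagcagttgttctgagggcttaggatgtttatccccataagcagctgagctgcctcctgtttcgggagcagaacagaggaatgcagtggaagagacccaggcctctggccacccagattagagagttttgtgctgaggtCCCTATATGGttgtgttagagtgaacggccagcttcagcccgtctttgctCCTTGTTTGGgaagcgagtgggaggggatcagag

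The strict CArG box had 0 matches in the 7 windows, and 1.63% of all 32851 promoter windows of this length held it. Of the contractile genes only Acta2, Cnn1 and Smtn could be searched, and Tagln and Myh11 could not. With 1 core base free, a search added after the strict motif had found nothing, Acta2 held 2 matches, at -84 to -75 and at -34 to -25 from the start, and the other 6 genes held 0, against 9.98% of all windows. GCGTG was found in 4 of the 7 windows, those of Cnn1, Smtn, Cspg4 and Vtn, against 32.4% of all windows, and ACGTG in 1, that of Cnn1 at 5 to 9 past the start, against 19.6%. The E-box CANNTG, which can overlap ACGTG where the E-box reads CACGTG, was in 6 of 7 windows against 72.3% of all. Genes holding GCGTG rose (Cnn1, Cspg4), fell (Vtn) or did not pass (Smtn). These are matches of letters in a short window and no measurement of binding.

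**Figure D1:**
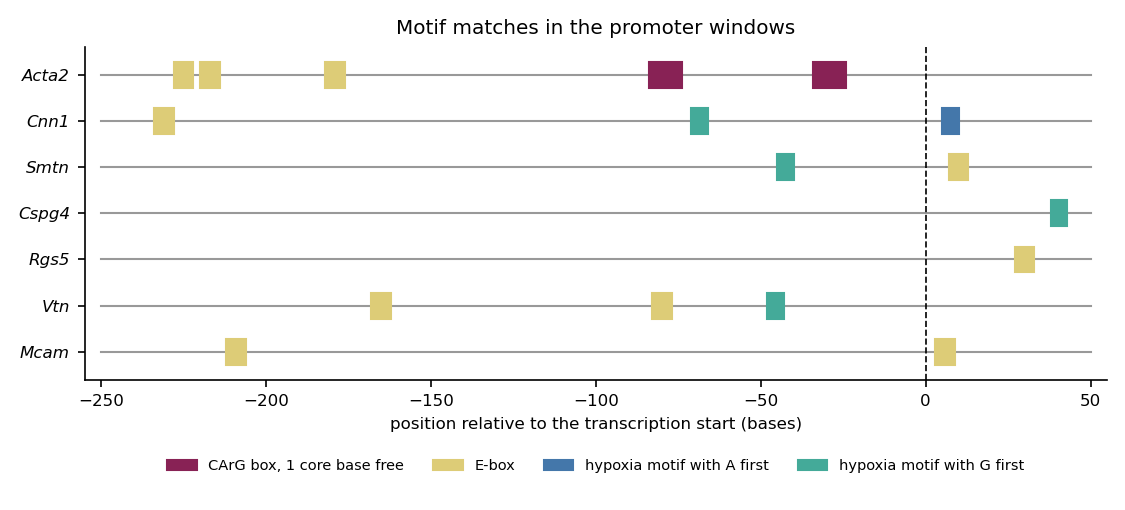
Motif matches in the promoter windows of the 7 genes with a RefSeq sequence, by position in bases from the transcription start (dashed line); colours give the motif. Acta2 alone held the CArG box with 1 core base free, at 2 places, and Cnn1, Smtn, Cspg4 and Vtn held GCGTG.

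The contractile genes did not move together. Of the 5, Cnn1 and Tagln rose, Myh11 fell, and Acta2 and Smtn did not pass. Of the 5 pericyte genes, Cspg4 rose, Vtn and Rgs5 fell, and Pdgfrb and Mcam did not pass. In all, 3 of 10 rose, where 16.1% of all genes and features did, and 3 of 10 fell, where 23.0% did. The median log2 difference of the 10 was -0.26, beside -0.11 for everything tested. The KO-labelled hearts lay wholly above the controls for 4 genes (22.7% of all tested) and wholly below for 4 (33.2%; 55.9% in either direction), which adds Pdgfrb and Smtn to the 6 that passed. In RNA of whole tissue, fewer cells of a type and less RNA per cell cannot be told apart.

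**Figure D2:**
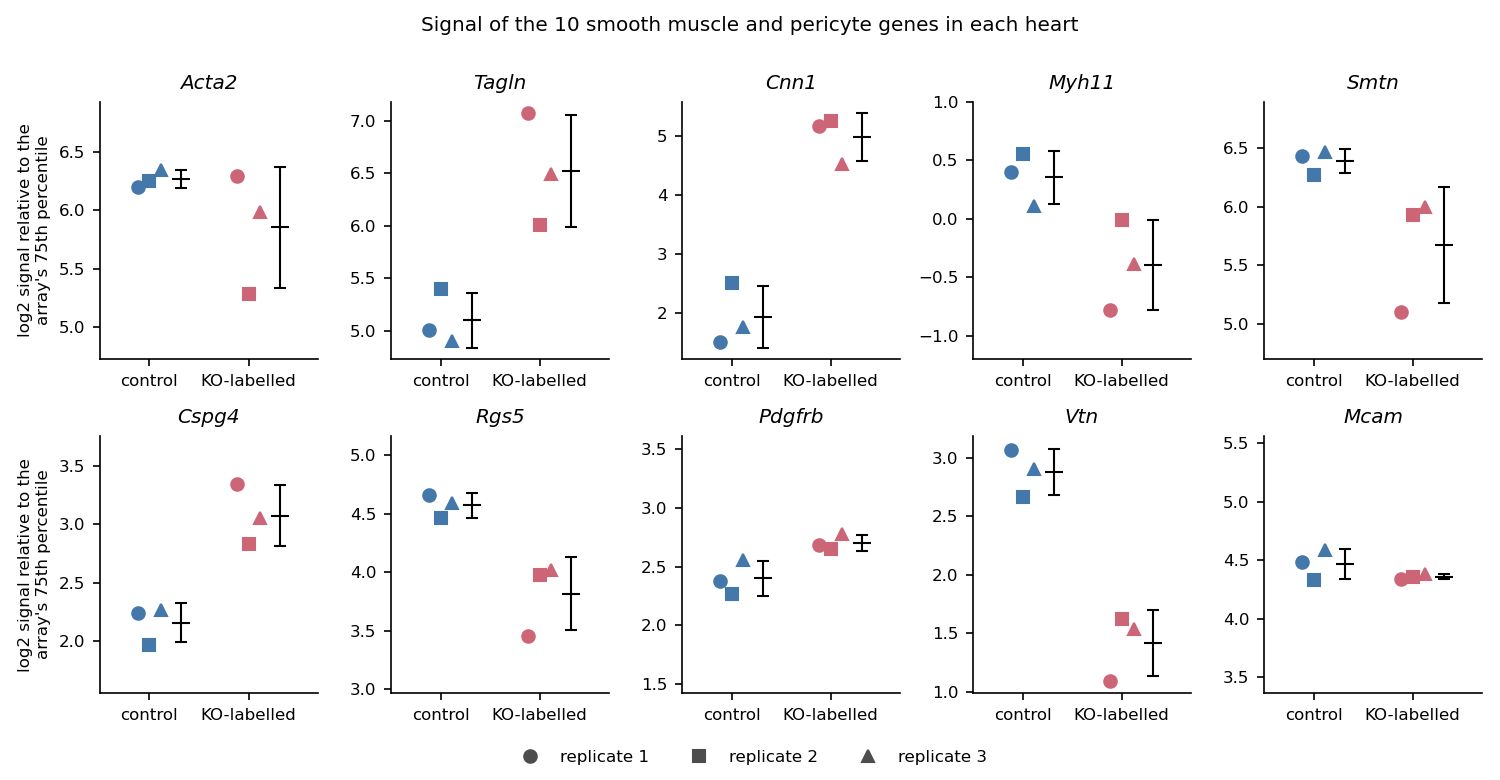
Log2 signal of each gene, scaled to the 75th percentile of its array, in each heart; blue, control; red, KO-labelled; the marker gives the replicate number, which pairs no animals; bars are mean ± SD, n = 3. Cnn1, Tagln, Cspg4 and Pdgfrb lay higher in all 3 KO-labelled hearts than in any control, and Vtn, Rgs5, Myh11 and Smtn lower.

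Cnn1 (NM_009922) encodes calponin, an actin-binding protein that restrains the myosin ATPase of smooth muscle. Control hearts read 1.51, 2.51 and 1.76 and KO-labelled hearts 5.18, 5.26 and 4.52. The groups lay far apart, and control replicate 2 was the highest control. The means were 1.93 ± 0.52 and 4.99 ± 0.40 (SD, n = 3 each), an 8.34-fold rise (log2 difference 3.06 ± 0.31 SE, limma adjusted p = 0.00234). Only 0.6% of the genes and features tested had a larger positive difference.

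Tagln (NM_011526) encodes transgelin, also called SM22-alpha, which cross-links actin filaments and is an early marker of the smooth muscle lineage. Controls measured 5.01, 5.40 and 4.90, against 7.07, 6.0 and 6.49 in KO-labelled hearts. The groups did not overlap, and control replicate 2 was again the highest control. It rose 2.68-fold (log2 difference 1.42 ± 0.28 SE, limma adjusted p = 0.0110), more than 94.8% of all tested.

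Acta2 (NM_007392), the smooth muscle alpha-actin, did not follow. Controls gave 6.19, 6.25 and 6.34 and KO-labelled hearts 6.29, 5.28 and 5.98. KO-labelled replicate 1 lay inside the range of the controls, and the other two below it. The mean difference was -0.41 ± 0.26 SE with a 95% interval from -1.02 to 0.20 (limma adjusted p = 0.235). It was -0.13 without KO-labelled replicate 2, -0.63 without KO-labelled replicate 1 and -0.17 with spike-in scaling, and passed in none of these. The spread among KO-labelled hearts, 0.52 (SD, n = 3), exceeded that among controls, 0.08 (SD, n = 3).

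Myh11 (NM_001161775) encodes smooth muscle myosin heavy chain, the most specific marker of mature smooth muscle. Its values were 0.40, 0.55 and 0.11 for controls, against -0.78, -0.01 and -0.39 for KO-labelled hearts. The groups were separate, but the gap between them was narrower than the range within either. It fell 1.68-fold (log2 difference -0.75 ± 0.22 SE, limma adjusted p = 0.0382). This call was weak: it was lost without any heart but KO-labelled replicate 2, with an adjusted p of 0.0586 to 0.111, and with spike-in scaling at 0.175.

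Smtn encodes smoothelin, a cytoskeletal protein of contractile smooth muscle, and had 2 probes. The brighter one (NM_001159284) read 6.44, 6.28 and 6.47 in controls against 5.10, 5.93 and 6.0 in KO-labelled hearts, with replicate 1 far below the other two. Its difference was -0.72 ± 0.25 SE (limma adjusted p = 0.0598), and -0.43 without KO-labelled replicate 1 (adjusted p = 0.0541). The other probe (NM_013870) had 3.24, 3.08 and 3.22 against 2.30, 2.75 and 2.73, a difference of -0.58 ± 0.16 SE that passed when adjusted over all 26070 probes kept (limma adjusted p = 0.0290; 38.2% of probes passed). The probes therefore gave the same direction and differed in the call, and the gene passed under 6 of 19 alternatives.

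Vtn (NM_011707) encodes vitronectin, an adhesive glycoprotein of plasma and matrix that binds integrins. It read 3.06, 2.67 and 2.91 in control hearts against 1.1, 1.62 and 1.54 in KO-labelled hearts. The highest KO-labelled heart lay more than 1 unit below the lowest control. It fell 2.75-fold (log2 difference -1.46 ± 0.18 SE, limma adjusted p = 0.00347), and 3.7% of everything tested fell further.

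Rgs5 (NM_009063), a regulator that speeds the shut-off of G protein signals and is a standard pericyte marker, read 4.66, 4.46 and 4.59 in controls against 3.46, 3.97 and 4.02 in KO-labelled hearts. The controls were tightly grouped, at 4.57 ± 0.10 (SD, n = 3), and all KO-labelled hearts lay below them, at 3.82 ± 0.31 (SD, n = 3). It fell 1.69-fold (log2 difference -0.75 ± 0.18 SE, limma adjusted p = 0.0186). The call was lost without control replicate 1 (adjusted p = 0.0700), without control replicate 3 (0.0643) and with spike-in scaling (0.0564).

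Cspg4 (NM_139001) went the other way. It encodes NG2, a membrane proteoglycan of pericytes and glial progenitors that binds collagen VI. It read 2.24, 1.97 and 2.26 in controls against 3.35, 2.83 and 3.05 in KO-labelled hearts, with no overlap. It rose 1.89-fold (log2 difference 0.92 ± 0.17 SE, limma adjusted p = 0.00890).

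Pdgfrb (NM_001146268), the receptor that holds pericytes at the vessel, read 2.38, 2.26 and 2.56 in controls against 2.69, 2.65 and 2.78 in KO-labelled hearts. All KO-labelled hearts lay above the controls, by a small margin. The difference of 0.31 ± 0.12 SE had a 95% interval of 0.01 to 0.60, not adjusted for multiple tests, and did not pass (limma adjusted p = 0.0918). It passed after cyclic loess (0.44, adjusted p = 0.0182), quantile normalization (0.39, adjusted p = 0.0287) and spike-in scaling (0.55, adjusted p = 0.0320), and with normexp background correction (0.41, adjusted p = 0.0143) and array weights (0.29, adjusted p = 0.0153).

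Mcam (NM_023061) encodes the adhesion molecule CD146, found on pericytes, smooth muscle and endothelium. Its brighter probe read 4.49, 4.33 and 4.59 in controls against 4.34, 4.35 and 4.38 in KO-labelled hearts, which overlapped. The difference was -0.11 ± 0.12 SE with a 95% interval from -0.39 to 0.17 (limma adjusted p = 0.490), and it turned positive with quantile normalization (0.06), cyclic loess (0.05) and spike-in scaling (0.14). The dimmer probe read -1.98, -1.22 and -1.83 against -0.85, -1.23 and -1.50, a difference of 0.48 ± 0.25 SE in the opposite direction that did not pass either (adjusted p = 0.170).

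**Figure D3:**
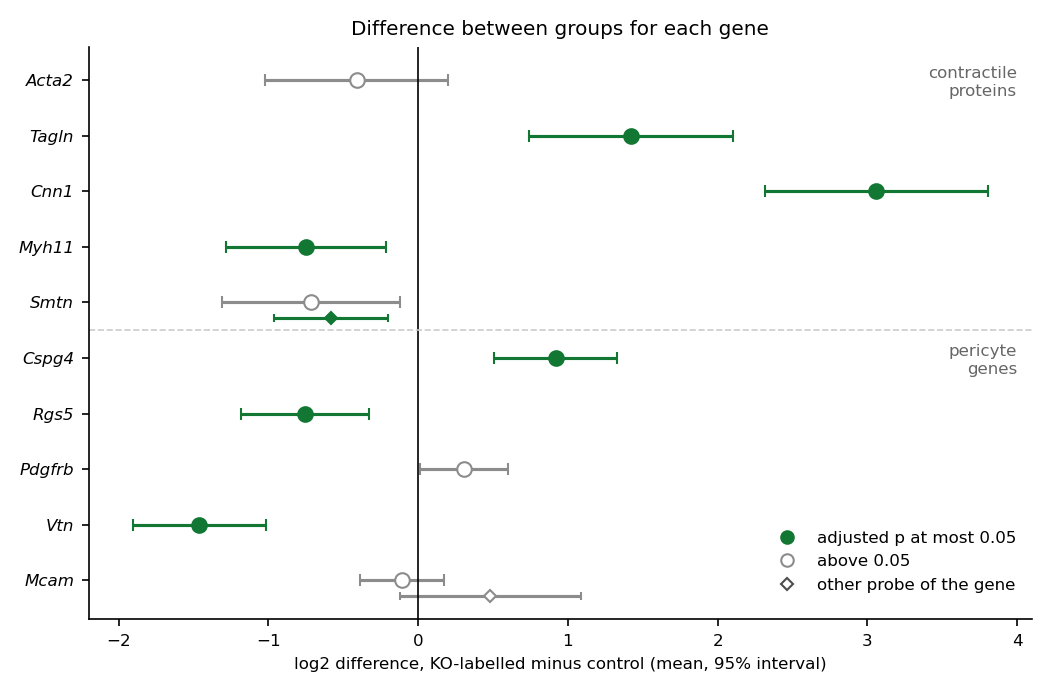
Log2 difference between KO-labelled and control hearts for each gene, with its 95% interval from limma (n = 3 per group); filled, adjusted p at most 0.05; small diamonds, the dimmer probes of Smtn and Mcam. Cnn1 had the largest rise, at 3.06, and Vtn the largest fall, at -1.46.

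Because scaling cancels within an array, ratios of 2 genes in the same heart show unequal change without depending on it. The pairs were chosen after the values were seen. Relative to the mean of the controls, the log2 ratio of Tagln over Acta2 was -0.03, 0.31 and -0.28 in controls against 1.94, 1.88 and 1.67 in KO-labelled hearts. The 3 KO-labelled hearts were close together on this ratio although they differed by over 1 unit in Tagln and in Acta2 alone. The ratio was higher by 1.83 (exact 2-sided permutation p = 0.1, the smallest this design can give). Cnn1 over Acta2 was higher by 3.47, Cnn1 over Myh11 by 3.81 and Cspg4 over Pdgfrb by 0.61 (exact permutation p = 0.1 for each). In KO-labelled hearts Cnn1 over Acta2 was 3.22, 4.31 and 2.88. Its spread there (SD 0.75, n = 3) was wider than that of Cnn1 alone (0.40) or Acta2 alone (0.52). Vtn over Pdgfrb differed by -1.77 and Rgs5 over Pdgfrb by -1.06 (exact permutation p = 0.1 for each). None of these 6 ratios overlapped between the groups, which the choice of pairs favoured, so this is a description only. Of single genes and features tested, 55.9% did not overlap.

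The KO-labelled hearts were not alike. Replicate 1 lay farthest from the control mean for 7 of the 10 genes, beside 54.2% of everything tested and 64.9% of everything called. It held the highest Tagln and Cspg4 and the lowest Myh11, Smtn, Rgs5 and Vtn of its group. Replicate 2 held the lowest Acta2 and Tagln and the highest Cnn1. Without KO-labelled replicate 1, the log2 difference of Tagln was 1.15 (limma adjusted p = 0.0172) and that of Rgs5 -0.57 (adjusted p = 0.0253).

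Other contractile genes of smooth muscle moved in both directions. Of 24 on a list written for this tissue, 23 were tested: 9 rose, 7 fell and 7 did not pass, with a median of 0.18. That was 39.1% higher and 30.4% lower, beside 16.1% and 23.0% of everything tested. The rises with the smallest p were Myl6 (1.20 ± 0.15 SE, limma adjusted p = 0.00361), a myosin light chain shared with non-muscle cells, Cald1 (1.03 ± 0.15 SE, adjusted p = 0.00481), the actin-binding caldesmon, and Synm (0.97 ± 0.16 SE, adjusted p = 0.00595), an intermediate filament protein. The list also holds the elastic fibre genes Eln and Fbln5, the filament gene Des and the myosin light chain gene Myl9, and these rose by 2.22, 1.73, 1.05 and 1.46. The fall with the smallest p was Pcp4l1 (-1.32 ± 0.19 SE, adjusted p = 0.00454), a small calmodulin-binding protein gene. The falls included Synpo2 (-1.24), Casq2 (-0.52), Nexn (-0.54), Tpm1 (-0.61) and Ppp1r12b (-0.70). Genes on this list, among the rises as among the falls, are also expressed in cells other than smooth muscle. Mylk, the myosin light chain kinase, measured 0.03 and the potassium channel subunit Kcnmb1 0.34, and neither passed. Synpo2 measured -0.0455 by its other probe (adjusted p = 0.912), and Tpm1 measured 0.86, in the opposite direction, by another probe. The calls of Tpm1 were lost under 12 of 20 alternatives, of Casq2 under 8 of 18, of Nexn under 7 of 18 and of Ppp1r12b under 3 of 18. Of the 16 calls, 7 held under every alternative at that threshold. Genes other than Myl6, Cald1, Synm and Pcp4l1 were picked after their values were seen. The count of falls was 3 without control replicate 1 or 3 and 4 without KO-labelled replicate 1, and that of rises 5 without control replicate 3.

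The other actins, calponins and transgelins were measured as well. Of the other actins, Actb (1.00 ± 0.12 SE, limma adjusted p = 0.00322) and Actg1 (0.64), the cytoplasmic forms, and Acta1 (2.24), the skeletal form, rose. Actc1, the cardiac form, fell by 0.56, a call lost under 9 of 18 alternatives, most fully with quantile normalization (adjusted p = 0.996), and Actg2, the enteric smooth muscle form, measured 0.78 and did not pass (adjusted p = 0.206). Of the calponins and transgelins, Cnn3 (1.22, adjusted p = 0.00399), Cnn2 (1.08) and Tagln2 (1.06) rose, and Tagln3, not well above background in any KO-labelled heart, did not pass (adjusted p = 0.0643). Actg1 did not pass under 8 of 20 alternatives and Cnn2 under 5 of 19.

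Other pericyte genes fell more often than they rose. All 24 listed were tested: 9 fell, 3 rose and 12 did not pass, beside 23.0% lower and 16.1% higher among everything tested, and the list's median was -0.06. Art3, an ADP-ribosyltransferase gene, read 4.96, 5.14 and 4.70 in controls against 2.92, 3.34 and 3.06 in KO-labelled hearts, with no overlap (-1.83 ± 0.17 SE, limma adjusted p = 0.00212). Kcnk3 (-1.28), a background potassium channel, Colec11 (-1.24), a collectin, and Kcnj8 (-1.40) and Abcc9 (-1.91), the pore and sulfonylurea receptor of the vascular ATP-sensitive potassium channel, fell as well. P2ry14 (-1.18), Steap4 (-1.0) and Pde5a (-2.10) were also among the falls. Abcc9 is also expressed in cardiomyocytes, and the list as a whole was not limited to genes particular to pericytes. The rises were Aspn (2.14 ± 0.17 SE, adjusted p = 0.00143), which encodes the matrix protein asporin and is also a fibroblast gene, Heyl (0.93), a Notch target, and Cd248 (0.74), endosialin. Higd1b (-0.16) and Notch3 (0.04), which are also used to mark pericytes, did not pass, nor did Ndufa4l2 (0.11), a HIF target. Of the 12 that passed, 10 did so under every alternative at that threshold, and the exceptions were Pde5a and Steap4. Without control replicate 2 the count of rises was 5. Genes named past the leading 4 were picked after their values were seen.

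**Figure D4:**
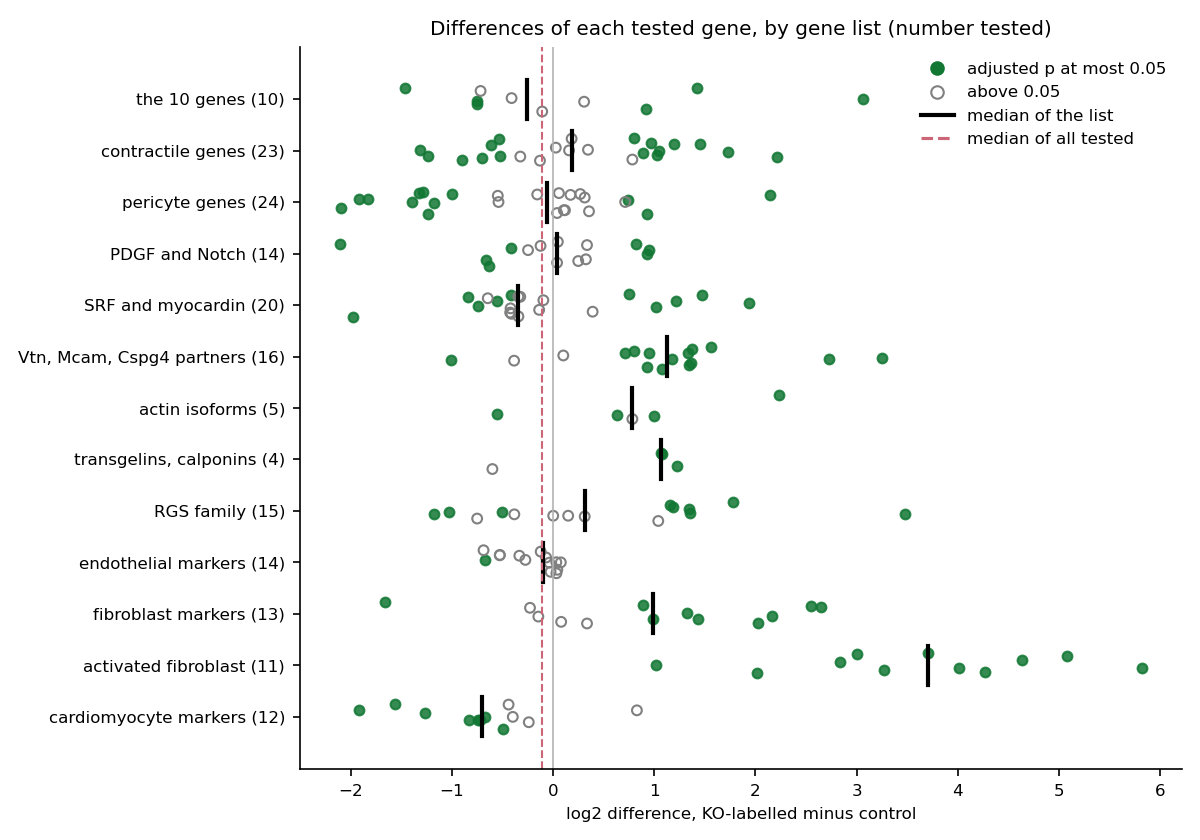
Log2 difference of every tested gene, by list, with the number tested in brackets; filled, limma adjusted p at most 0.05; black bar, median of the list; dashed line, median of everything tested (-0.11). The contractile and pericyte lists spread to both sides of 0, and the partners of Vtn, Mcam and Cspg4 lie mostly above it.

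Signals that recruit and pattern mural cells were mixed. Of 14 tested genes of PDGF and Notch signalling, 3 rose, 4 fell and 7 did not pass (median 0.04). The rises were 21.4% and the falls 28.6%, near the 16.1% and 23.0% of everything tested. Among the ligands, Pdgfb, which binds the receptor of pericytes, measured 0.32 and did not pass (limma adjusted p = 0.146), Pdgfc rose (0.95), and Pdgfa (-0.41) and Pdgfd (-0.63) fell. Notch1 fell by 2.11 ± 0.36 SE (adjusted p = 0.00719) and its target gene Hey1 by 0.66, while Notch2 (0.82 ± 0.13 SE, adjusted p = 0.00606) and Heyl rose. The 3 PDGF calls and that of Hey1 were each lost under at least 5 alternatives, and the count of falls was 1 without control replicate 1, control replicate 3 or KO-labelled replicate 3.

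Regulators around serum response factor, which include both activators of contractile genes and factors that restrain them, moved in both directions. Of 20 tested, 5 rose, 5 fell and 10 did not pass (median -0.34). Rises and falls were 25% each, beside 16.1% higher and 23.0% lower among everything tested. Srf itself measured -0.34 (limma adjusted p = 0.0774) and Myocd, myocardin, -0.34 (adjusted p = 0.121), and neither passed. The cysteine-rich proteins Csrp1 (1.02 ± 0.15 SE, adjusted p = 0.00465) and Csrp2 (1.93 ± 0.37 SE, adjusted p = 0.00986), cofactors of that pathway in smooth muscle, rose with Fhl1 (1.48), a LIM domain protein, Mrtfa (0.75), the coactivator released by actin polymerisation, and Klf5 (1.21). Gata6 (-0.74 ± 0.10 SE, adjusted p = 0.00414) and Hopx (-1.98) fell with Fhl2 (-0.85), Mrtfb (-0.42) and Elk1 (-0.55). The list was not limited to regulators particular to smooth muscle, in either direction. Klf5 was well above background on 1 of 3 control arrays, entered the test through the KO-labelled group, and did not pass with normexp (adjusted p = 0.188). The calls of Mrtfb were lost under 11 of 19 alternatives, of Elk1 under 10 of 18 (adjusted p up to 0.423) and of Fhl2 under 6 of 18, and that of Gata6 with spike-in scaling (0.0657). Of the 10 calls, 5 held under every alternative at the threshold of 0.05. The count of falls was 2 without control replicate 1, control replicate 3 or KO-labelled replicate 3, 3 without KO-labelled replicate 1 and 9 without control replicate 2.

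Genes for the binding partners of Vtn, Mcam and Cspg4 were mostly higher. Of 16 tested, 13 rose, 1 fell and 2 did not pass, with a median of 1.12. Among everything tested, 16.1% rose and 23.0% fell. Plau, among the rises, was well above background on 1 of 3 control arrays and entered the test through the KO-labelled group. For vitronectin, genes of its integrin receptors rose, with Itgb5 at 1.07 ± 0.18 SE (adjusted p = 0.00661), Itgav at 0.93 and Itgb3 at 1.38, and so did the urokinase receptor Plaur (1.56), while Vtn itself fell. For Cspg4, the collagen VI genes Col6a1 (1.35, adjusted p = 0.00447) and Col6a2 (1.36, adjusted p = 0.00675) rose. For Mcam, the laminin gene Lama4 rose (0.80) and Wnt5a fell (-1.01). Itgb3, Plaur, Plau and Lgals3 were each lost under at least 4 alternatives.

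Markers of the other cells in the tissue moved beside these genes. All 11 activated fibroblast markers rose (median 3.70), Thbs4, Ltbp2, Cilp and Ddah1 with the smallest p, and their summed linear signal was 22.9 to 97.3 in the controls and 290 to 536 in the KO-labelled hearts. Of 13 general fibroblast markers, 8 rose and 1 fell, Mfap4 (2.55) and Pcolce (1.43) having the smallest p, with a summed signal of 872 to 1280 against 1600 to 1730. Control replicate 2, the control with the highest Cnn1 and Tagln, also had the highest summed signal on both of these lists, but the lowest Cspg4 of the controls (1.97). Among KO-labelled hearts, replicate 2 had the lowest summed signal on both lists (290 and 1600), with the lowest Tagln (6.0) but the highest Cnn1 (5.26). Of 12 cardiomyocyte markers, 8 fell and 0 rose, Tnni3 (-1.57) having the smallest p, with a summed signal of 8600 to 11700 against 5020 to 6770. Of 14 endothelial markers, 1 fell (Ptprb, -0.67, limma adjusted p = 0.0262, lost under 10 of 19 alternatives), 0 rose and 13 did not pass, Tek (-0.69, adjusted p = 0.0665) being the next, with a summed signal of 325 to 349 against 278 to 364. All markers of the cardiomyocyte, endothelial and general fibroblast lists were well above background on every array, as were 9 of the 11 activated fibroblast markers; Tnc and Cthrc1 were so on 1 of 3 control arrays. The part of these cell types in the changes of the 10 genes was not tested.

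Of the 10 genes, Cnn1, Tagln and Cspg4 passed as higher and Vtn as lower under all 18 alternatives that kept the threshold of 0.05. Over these the log2 difference ran from 2.85 to 3.35 for Cnn1, 1.15 to 1.68 for Tagln, 0.78 to 1.16 for Cspg4 and -1.57 to -1.22 for Vtn. Rgs5 passed under 13 of 18 and Myh11 under 9 of 18, each below 0 throughout. Acta2 passed under 0 of 18 and Mcam under 0 of 19.

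**Figure D5:**
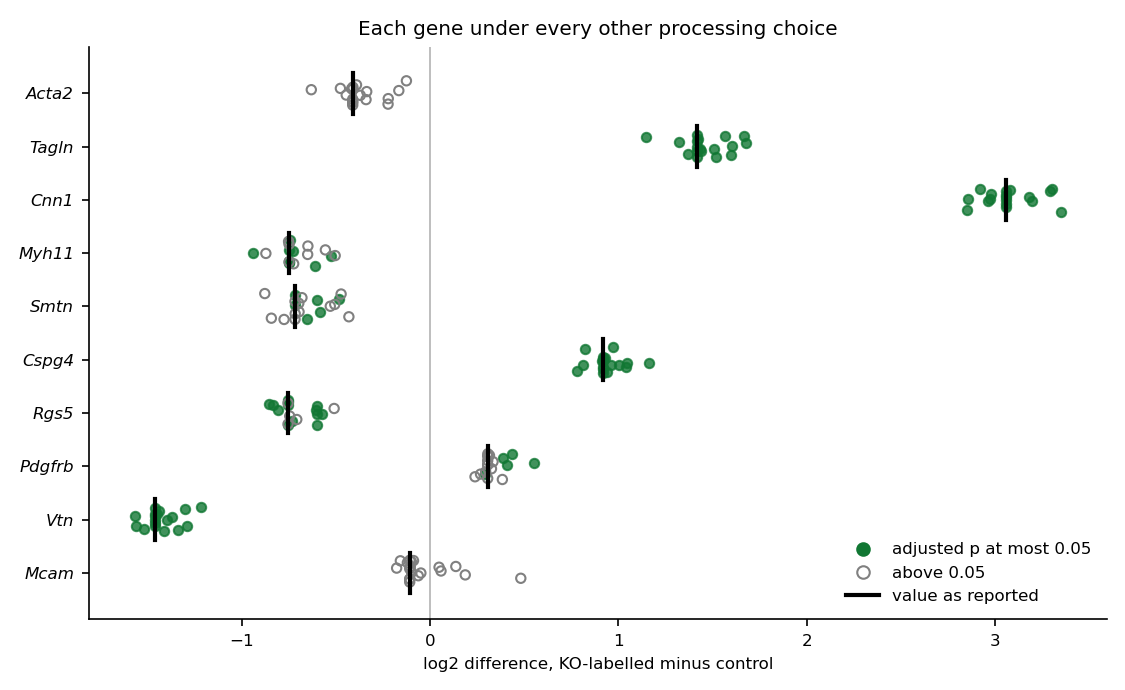
Log2 difference of each gene under each other processing choice (points; vertical position within a row carries no meaning) and as reported (black bar); filled, limma adjusted p at most 0.05. Cnn1, Tagln, Cspg4 and Vtn stay filled on 1 side of 0, and Mcam lies on both sides of it.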

How the data were processed

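The 6 hearts were compared as 3 KO-labelled against 3 control. The deposited scanner files hold intensity values on a linear scale that the authors made with Agilent Feature Extraction 11.0.1.1, per the file headers, with background subtracted and spatial trends removed within the array. They also hold other columns that the authors deposited, flags for outlying, saturated and well-above-background spots. The deposited value table holds log2 values of unstated normalization, and R 3.1.3 is named in the submitters' processing notes. Set against the scanner values, 94.9% of differences between arrays matched to 0.001 once 1 constant per array was removed. Its column medians were 0.09, -0.02 and 0.07 (control) and -0.04, -0.05 and -0.02 (KO-labelled). It served as an alternative only, and its centring and the origin of its other values stay unknown. For the RNA, the labels name a column kit in one protocol and a blood RNA kit with globin removal in another, which was not resolved.

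Flagged spots were left out, log2 signals of a probe were averaged, and each array's 75th percentile, 147 to 235 in signal, was subtracted. RefSeq accessions named 26551 of 55608 probes through a GRCm38.p6 gene table. A probe was kept when well above background on all 3 arrays of a group, and a gene stood by its brightest kept probe. Files were read with the data.table package (1.17.8). The 2-sided tests came from limma (3.58.1, under R 4.3.3), without a block, and were checked on simulated data. All 10 members and every probe of theirs are described, with Egln1 and Egln3. From each gene list up to 4 called genes with the smallest p were named, 2 where fewer than 2 passed, and all in lists of up to 5 genes. The members and lists were chosen with earlier results of these data known, so their counts are descriptions. Some genes counted in the lists are not reported here by name. The number of arrays limits the precision. The files have no mean spot signal, so normexp (offset 50) used the median signal. The other alternatives were quantile, median, cyclic loess and E1A spike-in scaling (7 probes), the value table, other dim-probe filters, the mean of a gene's probes or every probe, trend and robust variance, array weights, the replicate block, each heart left out and a threshold of 0.01.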

Additional observations from a re-analysis of the deposited data

How the results depend on the processing

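Replicate numbers did not pair the hearts: deviations from the group means correlated at -0.15, -0.12 and -0.08 for the same number, and no sample correlated best with its own number. With the replicate block, 1 member fell in place of 3, with Rgs5 at -0.75 (adjusted p = 0.0563) and Myh11 at -0.75 (adjusted p = 0.0543), and 4862 genes and features passed in place of 7817. That count was 4345 without a dim-probe filter, 13713 with array weights (whose estimation stopped before its set tolerance), 3106 at a threshold of 0.01 and 3987 to 8672 with a heart left out. It was 3987 without control replicate 1, 4123 without control replicate 3 and 5142 without KO-labelled replicate 3. Of the calls, 41.1% were higher; spike-in scaling made this 60.3% and cyclic loess 55.3%. They moved the median difference of all genes by 0.24 and 0.14.

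The count of members that fell was 1 with spike-in scaling, without a dim-probe filter and at 0.01, and 1 to 3 with a heart left out. It was 1 without control replicate 1 or 3. That of members that rose was 2 to 4 over all alternatives. Myh11 was not called after cyclic loess (-0.65), with spike-in scaling (-0.50), without a filter and at 0.01 (-0.75 each), and ran from -0.94 to -0.56 with a heart left out. Rgs5 was not called with spike-in scaling (-0.51), without a filter or at 0.01 (-0.75 each), and ran from -0.86 to -0.57 with a heart left out. At 0.01, Tagln (1.42) was not called. Smtn was called with normexp (-0.60), with all 6 arrays required above background or with trend and robust variance (-0.72 each), with the mean of its probes (-0.65), by its other probe (-0.58) and with array weights (-0.49). Pdgfrb was called with normexp (0.41), quantile (0.39), cyclic loess (0.44), spike-in scaling (0.55) and array weights (0.29). Mcam turned to 0.0583, 0.048 and 0.137 with quantile, cyclic loess and spike-in scaling, 0.19 with the mean of its probes and 0.48 by its other probe. Tpm1, lower by its brightest probe, had 0.0014 with the mean of its probes and 0.86 by another probe. With 1 core base free, 1 of the 7 members with a promoter window held a CArG box. No slide block was run, since there was 1 slide. Signal over background did not limit the members.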

Other observations

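The RGS family, to which Rgs5 belongs, held the largest rise among these regulators of G protein signalling. Of 15 tested, 6 rose, 3 fell and 6 did not pass, with a median of 0.31. That was 40% higher and 20% lower, beside 16.1% and 23.0% of everything tested. Rgs9, among the rises, was well above background on 0 of 3 control arrays, entered the test through the KO-labelled group and was lost with normexp (adjusted p = 0.777). Of the 9 calls, 3 held under every alternative at the threshold of 0.05. Rgs11 read -2.03, -1.24 and -1.40 in controls against 1.81, 1.92 and 2.03 in KO-labelled hearts, an 11.1-fold rise (3.48 ± 0.22 SE, limma adjusted p = 0.00124). Rgs10 (1.36, adjusted p = 0.00475) and Rgs19 (1.18, adjusted p = 0.00598), expressed in leukocytes among other cells, rose. Rgs2 (-1.03, adjusted p = 0.00608), which restrains Gq signals in smooth muscle and cardiomyocytes, fell, as Rgs5 did. The Rgs2 probe with the most negative difference did not pass (adjusted p = 0.0970). Rgs4, another pericyte gene, measured 0.31 and did not pass. The count of falls was 1 without control replicate 1, KO-labelled replicate 1 or KO-labelled replicate 3.

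Of 10 macrophage markers 6 rose and 2 fell (Adgre1, 1.88, limma adjusted p = 0.00644). Of 6 erythroid markers 1 fell (Hba-a2, -0.57, adjusted p = 0.0487), a call lost under 10 of 18 alternatives, with -0.0374 and an adjusted p of 0.763 under quantile normalization. Of 7 epicardial markers 0 passed in either direction with limma (1 at an unadjusted p under 0.05, Tbx18 at 0.71, adjusted p = 0.0795). Control replicate 2 stood apart on this list, with a summed signal of 46.5 against 7.11 and 8.71 in the other controls and 16.7 to 24.7 in KO-labelled hearts, and without it Msln was 1.58 higher (adjusted p = 0.0135) in place of 0.65 (0.523). Of 6 Schwann cell and neuronal markers 2 rose and 2 fell (Th, -0.79; Tubb3, 3.21), and of 5 tested fast skeletal muscle genes 3 rose and 2 fell (Tnnt3, 5.65; Ckm, -2.01).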
